A study of Canis lupus familiaris and Dasypus novemcinctus and Ornithorhynchus anatinus with 3 samples.

Results

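Genes of antigen presentation and of the interferon response were followed in messenger RNA libraries of pregnant endometrium, the lining of the uterus, from dog, armadillo and platypus. The list held 39 names, and a gene was compared where its symbol was listed in at least 2 of the 3 gene tables, with platypus beta-2-microglobulin taken from its entry name B2MG_ORNAN. In all, 28 genes met this rule, of 12505 symbols listed in at least 2 tables. The list was chosen with earlier results of these data known, so its shares beside those of all genes are descriptions only. Of the 28, 14 were listed in all 3 tables and 14 in 2. A further 6 names (PSMB8, IRF3, IRF9, ISG15, OAS1 and MX1) were listed in 1 table, and TAP2, TAPBP, PSMB9, USP18 and MX2 were not analysed here under those symbols.

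The dog and the armadillo are placental mammals (eutherians), and the platypus is a mammal that lays eggs. All 3 tissues are labelled as pregnant endometrium, and the labels give neither the stage of pregnancy, the age nor the number of animals. Each species had 1 library, so each level is a single measurement, no difference has a replicate check and no p-value is given. Levels are CPM, reads scaled to the summed reads of all genes in a table, and intervals are exact 95% intervals that cover counting error only.

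Nucleated cells cut proteins with proteasomes, carry the peptides into the endoplasmic reticulum through the TAP transporter, trim them and load them on class I molecules, whose light chain is beta-2-microglobulin. Professional antigen-presenting cells load peptides on class II molecules with the help of the invariant chain CD74, under control of the transactivator CIITA. Interferons bind paired receptor chains, act through JAK kinases, STAT proteins and interferon regulatory factors (IRFs), and induce both presentation genes and antiviral effectors. In the eutherian uterus, interferon-induced genes are known to respond to pregnancy in several species.

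Summed over genes, 13625465 reads were counted for dog, 13218476 for armadillo and 2243556 for platypus. Platypus listed 21 of the list genes, and 10 of them were at 0. A count of 0 allows up to 3 reads, which is 1.34 CPM in platypus. Of all platypus genes 42.4% were listed at 0. Every gene in the armadillo table had at least 1 read, and a symbol that this table does not hold was left out of its comparisons instead of being set to 0. Markers of leukocytes, which carry much of the class II machinery, summed to 63.6 CPM in dog and 397 CPM in armadillo over the 10 markers listed in both. All 10 had reads in both libraries. In platypus 2 of 6 listed leukocyte markers had reads, with a sum of 3.12 CPM, and CD3D, CD79B, MS4A1 and CORO1A were at 0. Epithelial markers summed to 2541 CPM in dog and 550.4 CPM in armadillo over 3 shared markers, and 8.91 CPM over 5 listed in platypus, where the epithelial protease gene ST14 was at 0. Stromal markers COL3A1 and LUM together reached 626 CPM in dog and 7956 CPM in armadillo. In platypus COL3A1 was at 294 CPM and LUM at 1250 CPM. Over more genes, the 7 stromal markers listed in platypus summed to 6990.2 CPM, mostly DCN at 5099 CPM, with THY1 at 0. The 6 listed in armadillo summed to 22222 CPM, and DCN was not listed in dog. Endothelial markers were represented in both eutherian tables by ESAM, at 10.3 CPM in dog and 445 CPM in armadillo. The 6 listed in platypus summed to 20.5 CPM, nearly all from CDH5 at 20.1 CPM (45 reads), against 31.0 CPM in dog. TIE1 was at 122 CPM in dog and 0.446 CPM (1 read) in platypus. VWF, KDR, TEK and ESAM were at 0 in platypus. The part that cell makeup had in the results below was not tested, and in bulk tissue fewer cells of a type and less RNA per cell cannot be told apart.

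**Figure D1:**
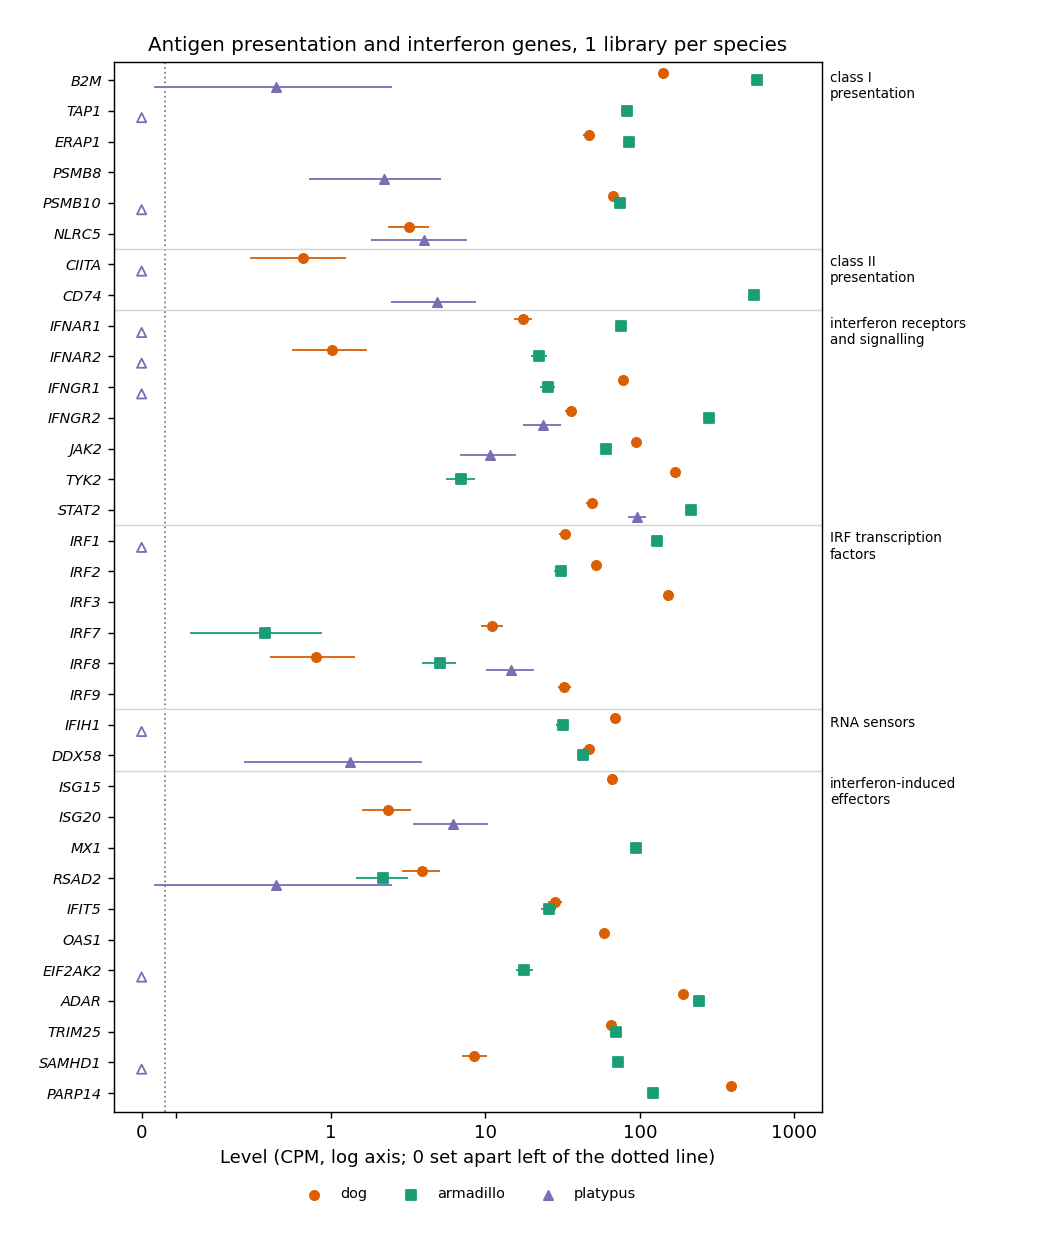
Level of each listed gene in CPM (log axis) in dog (circles), armadillo (squares) and platypus (triangles), with exact 95% counting intervals as horizontal lines. Open triangles left of the dotted line are the 10 genes listed at 0 in platypus, while every dog and armadillo gene shown had reads.

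Dog and armadillo were compared first, because both libraries had similar depth. Both chains of the type I interferon receptor (IFNAR1 and IFNAR2), the interferon gamma receptor chain IFNGR2, STAT2, SAMHD1 and B2M were lower in dog, and TYK2 and IRF7 were higher in dog. The limit for a difference was a 4-fold ratio of CPM + 1, with at least 5 CPM in the higher of the 2 libraries. By this limit 2 of 22 genes were higher in dog (9.09%), against 12.6% of all 8908 matched genes, and 6 of 22 were lower in dog (27.3%), against 13.3% of all. Among genes with at least 5 CPM in the higher library, 9.52% of list genes were higher in dog, against 15.1% of all. Lower in dog were 28.6%, against 15.9%. IRF3, IRF9, ISG15 and OAS1 had dog reads and were not listed in armadillo, so they could not count as higher in dog. TAP1, CD74, EIF2AK2 and MX1 were listed in armadillo and not under those symbols in dog, so they could not count as lower. The median log2 ratio over the 22 genes was -0.12, against 0.00 over all matched genes, and the ratios of single genes ran from -3.52 to 4.42 on that scale.

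B2M, the class I light chain, stood at 141 CPM (95% interval 135 to 148) in dog and 569 CPM (95% interval 557 to 582) in armadillo, which was 4.03-fold (95% interval 3.84 to 4.24) lower in dog. This ratio lay just past the 4-fold limit, and with totals over symbols matched in all 3 tables it did not pass (log2 ratio -1.94). ERAP1, the aminopeptidase that trims peptides in the endoplasmic reticulum, stood at 46.8 CPM in dog and 84.8 CPM in armadillo, a 1.81-fold difference (95% interval 1.64 to 2.0) under the limit. PSMB10, a catalytic subunit of the immunoproteasome, was nearly level, at 67.2 CPM in dog and 74.3 CPM in armadillo. The class I genes of the list with a ratio were thus all lower in dog, by unlike amounts. The light chain differed about 4-fold and the protease subunit 1.11-fold (95% interval 1.01 to 1.21). TAP1, a chain of the peptide transporter, was at 83.0 CPM in armadillo. NLRC5, a transactivator of class I genes, was at 3.23 CPM (44 reads) in dog.

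In the class II branch, CIITA was at 0.661 CPM (9 reads; 95% interval 0.302 to 1.25) in dog. CD74 was at 550.1 CPM (95% interval 538 to 563) in armadillo. No gene of this branch from the list was listed in both eutherian tables, so no ratio is available for it.

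The interferon receptor chains fell on both sides. IFNAR1, a chain of the type I receptor, stood at 17.6 CPM in dog and 75.4 CPM in armadillo, 4.28-fold (95% interval 3.72 to 4.95) lower in dog. Its partner IFNAR2 was at 1.03 CPM (14 reads) in dog and 22.2 CPM in armadillo, 21.6-fold (95% interval 12.7 to 40.1) lower in dog. IFNGR2, the signalling chain of the interferon gamma receptor, was at 35.8 CPM in dog and 281.5 CPM in armadillo, 7.86-fold (95% interval 7.15 to 8.66) lower in dog. IFNGR1, the chain that binds interferon gamma, went the other way, with 77.8 CPM in dog and 25.3 CPM in armadillo, 3.07-fold (95% interval 2.71 to 3.48) higher in dog and under the limit. The 3 chains that were lower in dog are neighbours in the dog genome: in the RefSeq gene table of assembly UU_Cfam_GSD_1.0, IFNAR2 and IFNAR1 have 1 protein-coding gene between them, IL10RB, and IFNAR1 and IFNGR2 have 0.

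Among the kinases and STAT proteins, TYK2, a kinase bound to the type I receptor, had the largest ratio of CPM + 1 in the list. It stood at 170 CPM (95% interval 163 to 177) in dog and 6.96 CPM (95% interval 5.61 to 8.54) in armadillo, 24.4-fold (95% interval 19.8 to 30.4) higher in dog. JAK2, a kinase of the interferon gamma receptor, was closer, with 95.2 CPM in dog and 60.8 CPM in armadillo, a 1.56-fold difference (95% interval 1.43 to 1.71). STAT2, which joins IRF9 in the complex that drives interferon-induced genes, stood at 48.9 CPM in dog and 213 CPM in armadillo, 4.37-fold (95% interval 4.01 to 4.76) lower in dog. Of the 7 receptor and signalling genes, 1 was past the limit upward in dog, against 12.6% of all matched genes, and 4 downward, against 13.3%.

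The IRF genes also split. IRF7, a regulator of type I interferon genes, had 151 reads or 11.1 CPM in dog and 5 reads or 0.378 CPM in armadillo, 29.3-fold (95% interval 12.3 to 91.5) higher in dog. The wide interval comes from the 5 armadillo reads. IRF1, which is induced by interferon gamma, stood at 32.8 CPM in dog and 129 CPM in armadillo, a 3.93-fold difference (95% interval 3.54 to 4.37) just under the limit and lower in dog, which passed with median-of-ratios factors (log2 ratio -2.26). IRF2, known to oppose IRF1 at shared sites, stood at 52.3 CPM in dog and 30.9 CPM in armadillo. IRF8, a factor of macrophages, dendritic cells and B cells, was low in both, with 0.807 CPM (11 reads) in dog and 5.07 CPM (67 reads) in armadillo. It was 6.28-fold (95% interval 3.29 to 13.2) lower in dog, under the limit for CPM + 1 (log2 ratio -1.75), and passed with totals over matched symbols (-2.06) and with a pseudocount of 0.5 CPM (-2.09). IRF3 and IRF9 were listed in dog alone, at 152 CPM and 32.5 CPM.

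**Figure D2:**
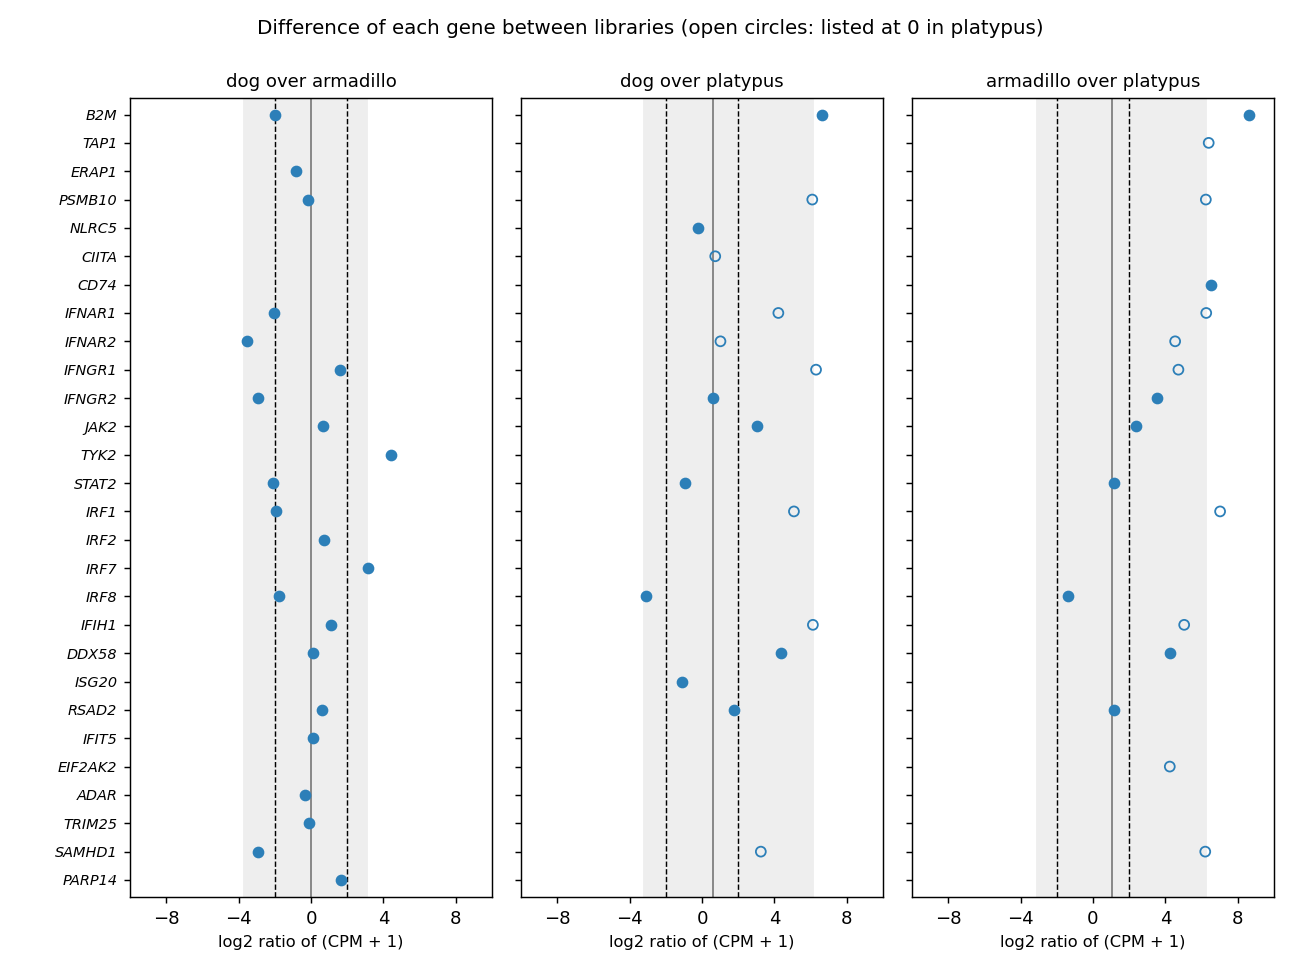
Log2 ratio of CPM + 1 for each gene in the 3 pairs of libraries. The grey band holds the central 90% of all matched genes, the grey line their median and the dashed lines the 4-fold limit; open circles mark genes listed at 0 in platypus, and B2M, IRF1, CD74, TAP1 and IFNAR1 are among those right of the band for armadillo over platypus.

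The cytosolic RNA sensors did not pass the limit between the eutherians. IFIH1, which encodes MDA5, stood at 68.8 CPM in dog and 31.8 CPM in armadillo, a 2.16-fold difference (95% interval 1.92 to 2.43). DDX58, which encodes RIG-I, stood at 46.7 CPM in dog and 43.0 CPM in armadillo, and the interval of its ratio (0.967 to 1.22) included equality.

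Of 6 effector genes listed in both eutherians, 1 (SAMHD1) was past the limit downward in dog, against 13.3% of all matched genes. Upward in dog, 0 of 6 passed, against 12.6%. SAMHD1, an enzyme that depletes nucleotides and restricts retroviruses, stood at 8.51 CPM in dog and 72.6 CPM in armadillo, 8.53-fold (95% interval 7.03 to 10.4) lower in dog. PARP14, an interferon-induced mono-ADP-ribosyltransferase, stood at 391 CPM in dog and 123 CPM in armadillo, 3.19-fold (95% interval 3.01 to 3.37) higher in dog and under the limit. The RNA-editing enzyme gene ADAR was at 189 CPM in dog and 240.2 CPM in armadillo. The ubiquitin ligase gene TRIM25 was at 64.9 CPM in dog and 69.7 CPM in armadillo, and IFIT5, which binds RNA, at 28.4 CPM in dog and 25.8 CPM in armadillo. For these 2 genes the interval of the ratio included equality. RSAD2, which encodes the antiviral enzyme viperin, was low in both, at 3.89 CPM (53 reads) in dog and 2.19 CPM (29 reads) in armadillo.

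Some classical interferon-induced effectors were listed in 1 table. ISG15, a ubiquitin-like modifier, stood at 66.6 CPM and OAS1, which makes the activator of RNase L, at 58.6 CPM in dog. MX1, a GTPase that blocks viruses, stood at 94.9 CPM in armadillo. The dog table holds the entry names MX1_CANFA, at 73.9 CPM (95% interval 69.4 to 78.6), and MX2_CANFA, at 22.5 CPM (95% interval 20.1 to 25.2). Taking MX1_CANFA as dog MX1, the level was 1.28-fold (95% interval 1.18 to 1.40) lower in dog. A dog class I heavy chain entry, HA19_CANFA, was at 53.1 CPM (95% interval 49.3 to 57.2). These entry names were picked out after their values were seen.

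Within the dog library, levels of different genes could be set side by side per length, through the relative abundance that the authors deposited. Reads divided by it gave whole gene lengths within 0.1 bases for 100% of 5644 dog genes with more than 500 reads, up to a constant fitted to make them whole. On this scale, in the authors' relative units, B2M (131) was the highest gene of the list, followed by IRF3 (78.6), ISG15 (68.0), PSMB10 (45.3) and PARP14 (44.9). B2M lay above 96.2% of the dog genes with reads, and PARP14, whose CPM was higher than that of B2M, above 85.6%. The lowest were CIITA (0.122), NLRC5 (0.347), IRF8 (0.389) and IFNAR2 (0.397), each above at most 18.7% of genes with reads. Of the 29 list genes with reads in dog, 21 lay above the median of detected dog genes.

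Ratios between species are not corrected for gene length. The implied dog model of IRF7 was 633 bases long and that of TYK2 3618 bases, and no lengths were used here for armadillo or platypus.

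Other genes of the same pathways came from a list of 124 names, of which 68 were listed in at least 2 tables. Between dog and armadillo, 1 of 49 passed the limit upward in dog (2.04%), against 12.6% of all matched genes, and 10 passed it downward (20.4%), against 13.3%. Here too, pathway genes listed in only 1 of these 2 tables could not count in either direction. Their median log2 ratio was -0.40, against 0.00 over all. The gene past it upward, HERC6, a relative of ubiquitin ligases that was picked out after its values were seen, stood at 40.9 CPM in dog and 5.67 CPM in armadillo, 7.20-fold (95% interval 5.65 to 9.30) higher in dog.

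Among the pathway genes lower in dog, IDO1, which degrades tryptophan, stood at 0.807 CPM (11 reads) in dog and 87.2 CPM in armadillo, and GBP6, a guanylate-binding protein, at 0.367 CPM (5 reads) in dog and 89.0 CPM in armadillo. LGMN, a lysosomal protease that processes antigens, was 16.8-fold (95% interval 15.5 to 18.2) lower in dog, and LNPEP, a peptide-trimming aminopeptidase, 27.3-fold (95% interval 18 to 43.4) lower. RNF213, a large interferon-induced ubiquitin ligase, stood at 1.32 CPM in dog and 342 CPM in armadillo, and its implied dog model was 588 bases long; the part of model length in this ratio was not tested. Leukocyte markers differed in the same direction, with the macrophage receptor gene CSF1R at 8.81 CPM in dog and 113 CPM in armadillo. Class II genes listed in 1 eutherian table included HLA-DPA1 at 196 CPM and HLA-DMA at 54.1 CPM in armadillo, both picked out after their values were seen. The few interferon genes listed were near 0, with IFNE at 5 reads and IFNK at 18 reads in dog and IFNG at 3 reads in armadillo. IFNG was not listed in dog and IFNB1 in neither eutherian, and both were at 0 in platypus.

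**Figure D3:**
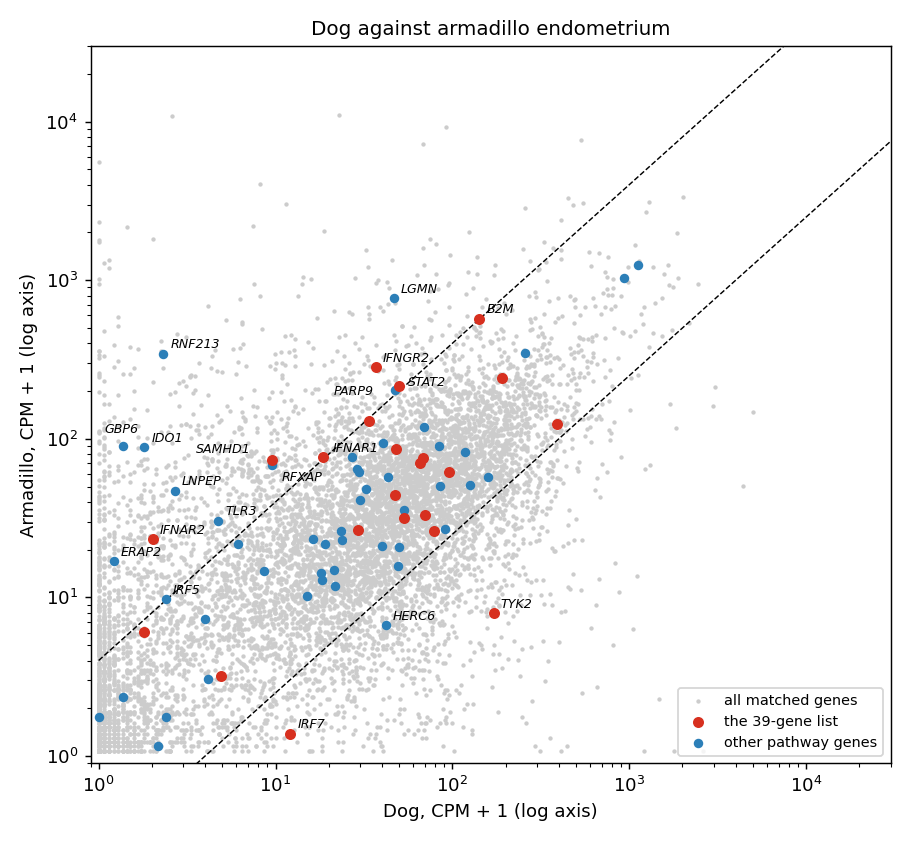
Armadillo against dog level (CPM + 1, log axes) for all 8908 matched genes in grey, the list genes in red and the other pathway genes in blue, with the 4-fold limit dashed and genes past it named. TYK2, IRF7 and HERC6 lie on the dog side, and the other named genes on the armadillo side.

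Dog was then set against platypus, as a placental against an egg-laying mammal. B2M, IRF1, IFNAR1, IFNGR1, JAK2, PSMB10, SAMHD1 and both RNA sensors were higher in dog, and IRF8 was lower in dog. By the same limit 9 of 17 genes were higher in dog (52.9%), against 32% of all 9074 matched genes, and 1 of 17 was lower (5.88%), against 9.91% of all. The median log2 ratio was 3.04, against 0.61 over all matched genes. Among genes with at least 5 CPM in the higher library, 69.2% of list genes were higher in dog, against 43.7% of all. Lower in dog were 7.69%, against 13.5%. Of the 17 genes 8 had no platypus reads, among them 6 of the 9 that were higher in dog. Over the 9 genes with reads in both libraries, 3 of 9 were higher in dog (33.3%), against 28.8% of all, 1 of 9 was lower (11.1%), against 13.3%, and the median was 0.58, against 0.51. With zeros set to the limit of 3 reads the median was 2.03.

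Armadillo was set against platypus in the same way, and the platypus library enters both comparisons. By the limit 14 of 17 genes were higher in armadillo (82.4%), against 36.1% of all 7297 matched genes, and 0 of 17 were lower, against 11%. NLRC5, ISG20 and PSMB8 had platypus reads and were not listed in armadillo, so they could not count as lower there. The median log2 ratio was 4.72, against 1.07 over all matched genes, and 3.81 with zeros set to 3 reads. Among genes with at least 5 CPM in the higher library, 87.5% of list genes were higher in armadillo, against 43.3% of all. Over the 8 genes with reads in both, 5 of 8 were higher (62.5%), against 27.5% of all, 0 of 8 were lower, against 14.9%, and the median was 2.96, against 0.41.

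Among list genes with platypus reads, the class I light chain showed the widest gap to platypus. B2M stood at 141 CPM (1924 reads) in dog, 569 CPM (7527 reads) in armadillo and 0.446 CPM (1 read) in platypus. The platypus interval was 0.0113 to 2.48 CPM. The ratios were 317-fold (95% interval 56.8 to 12520) for dog and 1278-fold (95% interval 229 to 50467) for armadillo, both resting on 1 platypus read. PSMB10 (67.2 CPM in dog and 74.3 CPM in armadillo) and TAP1 (83.0 CPM in armadillo) were listed at 0 in platypus. PSMB8, another immunoproteasome subunit, had 5 reads or 2.23 CPM there. NLRC5 was similar in both tables that list it, with 3.23 CPM (44 reads) in dog and 4.01 CPM (9 reads) in platypus.

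In the class II branch, CD74 stood at 550.1 CPM in armadillo and 4.90 CPM (11 reads) in platypus, 112-fold (95% interval 62.7 to 225) higher in armadillo. HLA-DRA, a class II chain from the other pathway genes, had 21 reads or 9.36 CPM in platypus, and CIITA was at 0. Of the other class II pathway genes, LGMN stood at 45.7 CPM in dog, 768 CPM in armadillo and 52.1 CPM (117 reads) in platypus, IFI30, a lysosomal thiol reductase, at 161 CPM in dog and 20.1 CPM (45 reads) in platypus, and CTSS and CD86 were at 0 in platypus.

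The receptor system was partly listed at 0 in platypus. IFNAR1 (17.6 CPM in dog and 75.4 CPM in armadillo), IFNAR2 (1.03 CPM in dog and 22.2 CPM in armadillo) and IFNGR1 (77.8 CPM in dog and 25.3 CPM in armadillo) had no platypus reads. Dog IFNAR2 was under the 1.34 CPM that 3 platypus reads give, so dog and platypus could not be told apart for it. IFNGR2 was detected, at 35.8 CPM in dog, 281.5 CPM in armadillo and 23.6 CPM (53 reads) in platypus. Its ratio to platypus was 1.52-fold (95% interval 1.14 to 2.05) for dog, under the limit, and 11.9-fold (95% interval 9.09 to 15.9) for armadillo. JAK2 was at 10.7 CPM (24 reads) in platypus, with dog 8.90-fold (95% interval 5.95 to 13.9) and armadillo 5.69-fold (95% interval 3.79 to 8.93) higher.

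STAT2 was the list gene with the most platypus reads, 215. It stood at 48.9 CPM (95% interval 45.2 to 52.7) in dog, 213 CPM (95% interval 206 to 221) in armadillo and 95.8 CPM (95% interval 83.5 to 109.5) in platypus, so dog was 1.96-fold (95% interval 1.67 to 2.29) lower and armadillo 2.23-fold (95% interval 1.94 to 2.57) higher than platypus. Neither ratio reached 4-fold.

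IRF8 was the list gene past the 4-fold limit in the direction of platypus, in the comparison with dog. It stood at 0.807 CPM (11 reads) in dog, 5.07 CPM (67 reads) in armadillo and 14.7 CPM (33 reads) in platypus. It was 18.2-fold (95% interval 8.98 to 40.0) lower in dog and 2.90-fold (95% interval 1.85 to 4.47) lower in armadillo than in platypus. The 6 leukocyte markers listed in platypus summed to 3.12 CPM, but PTPRC, CSF1R, CD68, ITGAM and AIF1 were not listed there. The cell source of the platypus IRF8 reads was not tested. IRF1 was listed at 0 in platypus, against 32.8 CPM in dog and 129 CPM in armadillo.

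Of the sensors, DDX58 had 3 reads or 1.34 CPM in platypus and IFIH1 was listed at 0. The ratio of DDX58 to platypus was 34.9-fold (95% interval 11.9 to 170) for dog and 32.2-fold (95% interval 11 to 157) for armadillo. Of the effectors, EIF2AK2, which encodes the RNA-dependent kinase PKR, stood at 17.9 CPM in armadillo and SAMHD1 at 8.51 CPM in dog and 72.6 CPM in armadillo, and both were listed at 0 in platypus. RSAD2 had 1 platypus read. ISG20, an exonuclease, stood at 2.35 CPM (32 reads) in dog and 6.24 CPM (14 reads) in platypus, 2.66-fold (95% interval 1.31 to 5.12) lower in dog and under the limit.

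Genes listed at 0 in platypus were frequent in the table as a whole. The part of gene models and read mapping in the low platypus counts was not tested. Among genes at 5 CPM or more in dog, 6 of 11 list genes (54.5%) were listed at 0 in platypus, against 19.7% of 6034 matched genes. Among genes at 5 CPM or more in armadillo, 9 of 16 (56.2%) were, against 20.2% of 5672. Between 20 and 100 CPM in armadillo the counts were 7 of 9 list genes and 19.1% of 2754 genes, and at 100 CPM or more they were 1 of 5 list genes and 15.7% of 1219 genes. Between 20 and 100 CPM in dog they were 4 of 8 list genes and 20.6% of 3036 genes. At 100 CPM or more in dog they were 0 of 1 list gene and 14.7% of 1493 genes. The other pathway genes had 7 of 21 at 0 among those at 5 CPM or more in dog and 8 of 26 in armadillo.

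**Figure D4:**
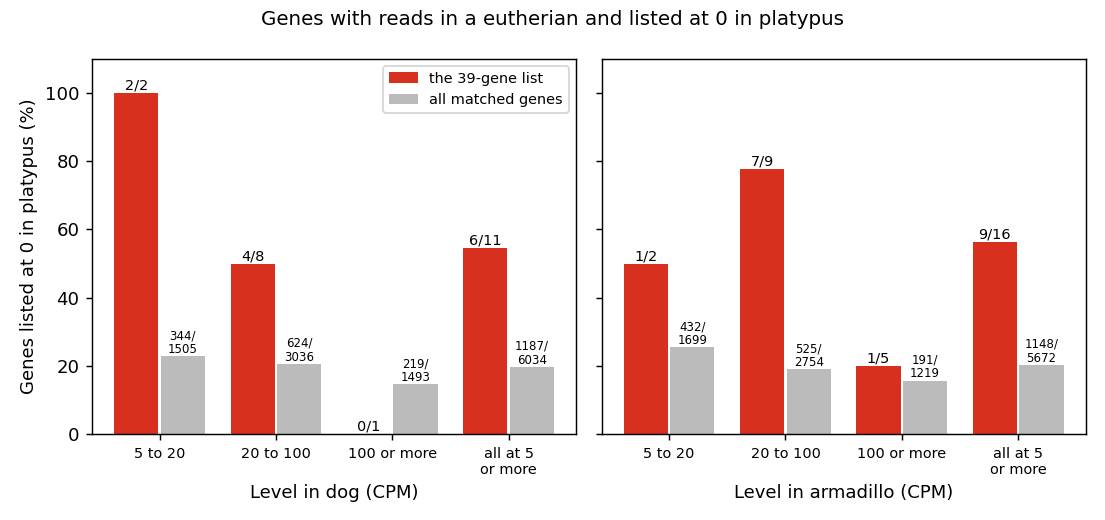
Share of genes listed at 0 in platypus, by their level in dog (left) or armadillo (right), for the list genes (red) and all matched genes (grey), with the counts above each bar. Over all genes at 5 CPM or more the share was 54.5% against 19.7% for dog and 56.2% against 20.2% for armadillo.

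The other pathway genes did not all follow the list. Between dog and platypus 13 of 31 were higher in dog (41.9%), against 32% of all matched genes, and 3 lower (9.68%), against 9.91%. Over those with reads in both, 6 of 19 were higher in dog (31.6%), near the 28.8% of all. Between armadillo and platypus 16 of 30 were higher in armadillo (53.3%), against 36.1% of all, and 3 lower (10%), against 11%. Over those with reads in both, 8 of 19 were higher in armadillo (42.1%), against 27.5% of all. PDIA3, a disulfide isomerase of the class I loading complex that also folds other glycoproteins, stood at 933 CPM in dog, 1026 CPM in armadillo and 15336 CPM in platypus, 16.4-fold (95% interval 16.1 to 16.8) lower in dog and 14.9-fold (95% interval 14.7 to 15.2) lower in armadillo than in platypus. The chaperone gene CALR stood at 1119 CPM in dog, 1248 CPM in armadillo and 5191 CPM in platypus. PSME2, a subunit of the proteasome activator PA28, was at 158 CPM in dog and 56.8 CPM in armadillo and listed at 0 in platypus, as was DTX3L, a ubiquitin ligase, at 84.0 CPM in dog and 49.6 CPM in armadillo. PTPN6, a phosphatase of blood cells that dampens cytokine signalling, was 8.94-fold (95% interval 7.69 to 10.4) lower in dog than in platypus, at 21.4 CPM in dog and 192 CPM in platypus.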

How the data were processed

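Messenger RNA of pregnant endometrium was sequenced from dog, armadillo and platypus, 1 library each, and samples were grouped by the species in the labels. The submitters' processing notes name Bowtie. Its version, the genome builds and the annotation were not given in the sources used here. For dog the authors deposited estimated counts per gene, equal to mapped bases divided by 34, which were rounded (516 were not whole), beside deposited scores (mapped bases and a relative abundance, used only per length in dog). The armadillo and platypus files hold raw counts per gene, as deposited by the authors, per the file headers. Lines of totals were left out.

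Symbols occurring once in a table were matched in upper case, and 82 of 1347 dog accessions were given symbols from RefSeq. CPM used the summed counts of each table, and log2 ratios a pseudocount of 1 CPM, which understates changes of low genes. Ratios in the text are without pseudocount, with exact intervals conditional on both counts (scipy 1.17.1). PCR reads are not independent molecules, so intervals cover counting error only. Calls needed a 4-fold ratio and 5 CPM in the higher library. Calculations were tested on simulated counts. The members and lists were chosen with earlier results of these data known. All list genes were to be named, and of the other pathway genes those 4-fold apart in the same direction in 2 pairs or among the 6 largest ratios of a pair. There were 6 alternatives, and promoter motifs were not analysed here. A further pathway gene is not reported here.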

Additional observations from a re-analysis of the deposited data

How the results depend on the processing

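No count, list median or gene past the 4-fold limit turned its direction under the 6 alternatives (median-of-ratios factors, totals over symbols matched in all 3 tables, a pseudocount of 0.5 CPM, no minimum, genes at 0 left out, and reads of UniProt-named genes added). With genes at 0 left out, 3 list genes were higher in dog than in platypus, with a median log2 ratio of 0.58, and 5 were higher in armadillo than in platypus, with a median of 2.96; fewer genes entered these counts. The median of armadillo over platypus was 5.73 with totals over matched symbols and 5.69 with the smaller pseudocount. The median of dog over armadillo was -0.44 with median-of-ratios factors, which moved the median of all matched genes to -0.21 for dog over armadillo and 0.25 for dog over platypus. Other counts and medians stayed within their limits. Single calls that changed were IRF1 (now lower in dog than in armadillo with median-of-ratios factors, log2 ratio -2.26), B2M (no longer past 4-fold with totals over matched symbols, -1.94), IRF8 (lower in dog than in armadillo, -2.06 with those totals and -2.09 with the smaller pseudocount) and RSAD2 (higher in dog than in platypus with those totals, 2.25). Under the limit, DDX58 (log2 ratio -0.20) and IFIT5 (-0.18) changed sign for dog over armadillo with median-of-ratios factors. Of 319 single-gene values under the alternatives, 260 stayed within the counting interval and 59 did not. Dropping the minimum, leaving out genes at 0 and adding UniProt-named reads left every single-gene ratio as it was. The 59 thus all came from median-of-ratios factors, totals over matched symbols or the smaller pseudocount, and the 260 include values that could not move. No paired analysis was possible because each species has 1 library. At the platypus depth of 2243556 reads, a count of 0 allows up to about 1.34 CPM by the limit of 3 reads. Depth was the limit considered here, and gene models and read mapping in platypus were not tested.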
